A study of Mus musculus with 4 samples.

Results

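The 10 genes described encode proteins of membrane fusion and traffic, grouped under degranulation, the fusion of secretory granules with the cell membrane. Not all of them act mainly at that step, as set out below. The genes are the vesicle SNAREs Vamp2, Vamp3, Vamp4 and Vamp8, the SNAP-25 relative Snap23, the syntaxins Stx3, Stx6 and Stx7, the syntaxin-binding protein Munc18-2 (gene Stxbp2), and the GTPase Rab27a. They were taken by gene symbol, as every probe set (a group of short oligonucleotide probes read as 1 value) to which the platform annotation gives 1 of these symbols and no other. This gave 28 probe sets for the 10 genes, out of 22626 probe sets without controls, which name 12393 genes. The cells were mast cells grown from mouse bone marrow, from mice lacking Pac1 (Pac1-/-) or from wild-type mice, with 2 cultures and 2 arrays per genotype. Pac1, encoded by Dusp2, is a phosphatase that switches off MAP kinases.

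Both genotypes were handled alike. Marrow came from mice 8 to 12 weeks of age and grew in medium with interleukin-3 (5 ng/ml) over 4 to 6 weeks, after which over 98% of cells carried Kit and the IgE receptor. The cells were loaded with 100 ng/ml IgE for 18 h and then activated over 2 h by DNP-HSA antigen at 20 ng/ml. No array of resting cells was analysed here, so every value is from activated cells. The labels do not give the strain, or whether a culture came from 1 mouse or from a pool, and they do not describe how the Dusp2 gene was altered. The design text calls the cultures independent, and the p-values rest on how far the 2 cultures of each genotype differed.

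Mast cells store histamine, proteases and heparin in granules and release them within minutes of IgE receptor crosslinking. A VAMP on the granule pairs with a syntaxin and SNAP23 on the cell membrane, and the coiled bundle that they form pulls the membranes together. Munc18-2 holds syntaxins ready for this pairing, and Rab27 GTPases on the granule recruit effectors that tether it beneath the membrane. Stx6, Stx7 and Vamp4 act mainly in traffic between the Golgi and endosomes, through which granules are also built. These steps use proteins already present, and the array measures the mRNAs that encode them.

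RefSeq promoter windows were matched for 8 of the 10 genes (not for Vamp2 and Vamp3), 11 windows in all, and the 250 bases before the annotated start were read. Of these, 4 are shown, for Stxbp2 and Stx6, which hold a searched motif in their only window, and for Vamp8 and Snap23 as the granule SNAREs with the widest intervals below. Capitals mark CACGTG, an E-box that the mast cell factor MITF can bind, and the sequences are given from 5′ to 3′ on the gene's strand in build GRCm38.p6.
Stxbp2 (chr8:3630859-3631108, plus strand): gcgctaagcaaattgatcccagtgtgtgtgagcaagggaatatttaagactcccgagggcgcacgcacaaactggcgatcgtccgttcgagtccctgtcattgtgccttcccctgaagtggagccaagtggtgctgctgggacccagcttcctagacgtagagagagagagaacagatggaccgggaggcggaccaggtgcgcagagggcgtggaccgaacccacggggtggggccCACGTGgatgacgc
Stx6 (chr1:155158453-155158702, plus strand): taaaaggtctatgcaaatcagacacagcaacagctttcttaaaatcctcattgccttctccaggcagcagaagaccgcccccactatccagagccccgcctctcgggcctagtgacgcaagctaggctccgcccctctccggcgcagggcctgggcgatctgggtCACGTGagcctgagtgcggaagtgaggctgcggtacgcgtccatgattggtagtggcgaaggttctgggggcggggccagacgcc
Vamp8 (chr6:72390668-72390917, minus strand): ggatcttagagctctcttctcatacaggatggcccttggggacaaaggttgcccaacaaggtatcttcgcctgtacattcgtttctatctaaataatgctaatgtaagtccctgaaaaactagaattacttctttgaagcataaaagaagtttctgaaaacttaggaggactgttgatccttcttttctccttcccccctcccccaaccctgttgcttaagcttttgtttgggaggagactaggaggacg
Snap23 (chr2:120567421-120567670, plus strand): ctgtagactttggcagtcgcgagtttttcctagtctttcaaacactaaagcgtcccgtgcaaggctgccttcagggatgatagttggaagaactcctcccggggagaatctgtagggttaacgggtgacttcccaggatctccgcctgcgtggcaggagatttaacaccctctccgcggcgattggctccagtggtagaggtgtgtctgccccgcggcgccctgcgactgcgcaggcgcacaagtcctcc
The E-box began 14 bases before the Stxbp2 start and 85 bases before the Stx6 start. It also lay in 1 of 2 windows of Vamp4, at 163 bases, and in 1 of 2 windows of Rab27a, at 246 bases. Searched on both strands, CACGTG was in 6.02% of 32851 RefSeq windows of the same length, against 4 of the 11 windows here. The AP-1 letters TGANTCA (6.75% of all windows), the cyclic AMP element TGACGTCA (1.55%), the E-box CATGTG (12.3%), the GATA letters AGATAA (9.99%) and the ETS letters CCGGAAG (6.91%) were in none of the 11. Letters that are absent from these windows may lie elsewhere, and none of the searched letters overlapped another in them.

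Values are quantile-normalised intensities, a brightness with no absolute unit that depends on the probes, so levels are compared between arrays for 1 probe set and not between genes. The genotype difference is Pac1-/- minus wild-type on the log2 scale, with values below 16 set to 16. The 7770 probe sets whose mean reached 100 were tested with limma. As deposited, 27.7% to 33.9% of the probe sets of an array reached 100, and Pac1-/- replicate 2 had the lowest share. Of the mast cell markers, 9 of 10 were at least 100 on all 4 arrays, with a summed intensity of 44913 to 56753 in Pac1-/- and 47560 to 53541 in wild-type cells. The exception was the IgE receptor beta chain Ms4a2, at 41.9 and 1502 in Pac1-/- and 142.6 and 3261 in wild-type replicates 1 and 2. The tryptase Tpsb2 was low on 1 array only, at 6588 and 476 in Pac1-/- and 5838 and 7259 in wild-type cells. Of 25 marker genes of macrophages, neutrophils, basophils and eosinophils, 20 were below 100 on every array, and the macrophage gene Adgre1, at 217 to 250.5, was at least 100 on all 4. The beta-actin control had a 3′ to 5′ signal ratio of 293 and 54.8 on the Pac1-/- arrays and of 109 and 1.58 on the wild-type arrays, in replicate order. The GAPDH ratio was 1.36 and 191 on the Pac1-/- arrays and 0.80 and 0.84 on the wild-type arrays, so Pac1-/- replicate 2 stood apart in both its low brightness and this ratio. What these ratios contributed to the differences below was not tested. Dusp2 itself read 109.3 and 75.5 in Pac1-/- and 167 and 90.7 in wild-type cells, a log2 difference of -0.44 ± 0.51 (SE, limma adjusted p = 0.888). Where its probes lie relative to the alteration is unknown here, so the genotype labels are not checked by this reading.

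Of the 28 probe sets, 18 reached the minimum and were tested, and these covered 8 of the 10 genes. The 10 that did not reach it had means of at most 93.2, and Vamp2 and Rab27a were represented only by such dim probe sets. Among the tested probe sets, 11 read at least 100 on all 4 arrays. Since cells were lysed in bulk, fewer cells making a transcript and less of it per cell cannot be told apart.

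**Figure D1:**
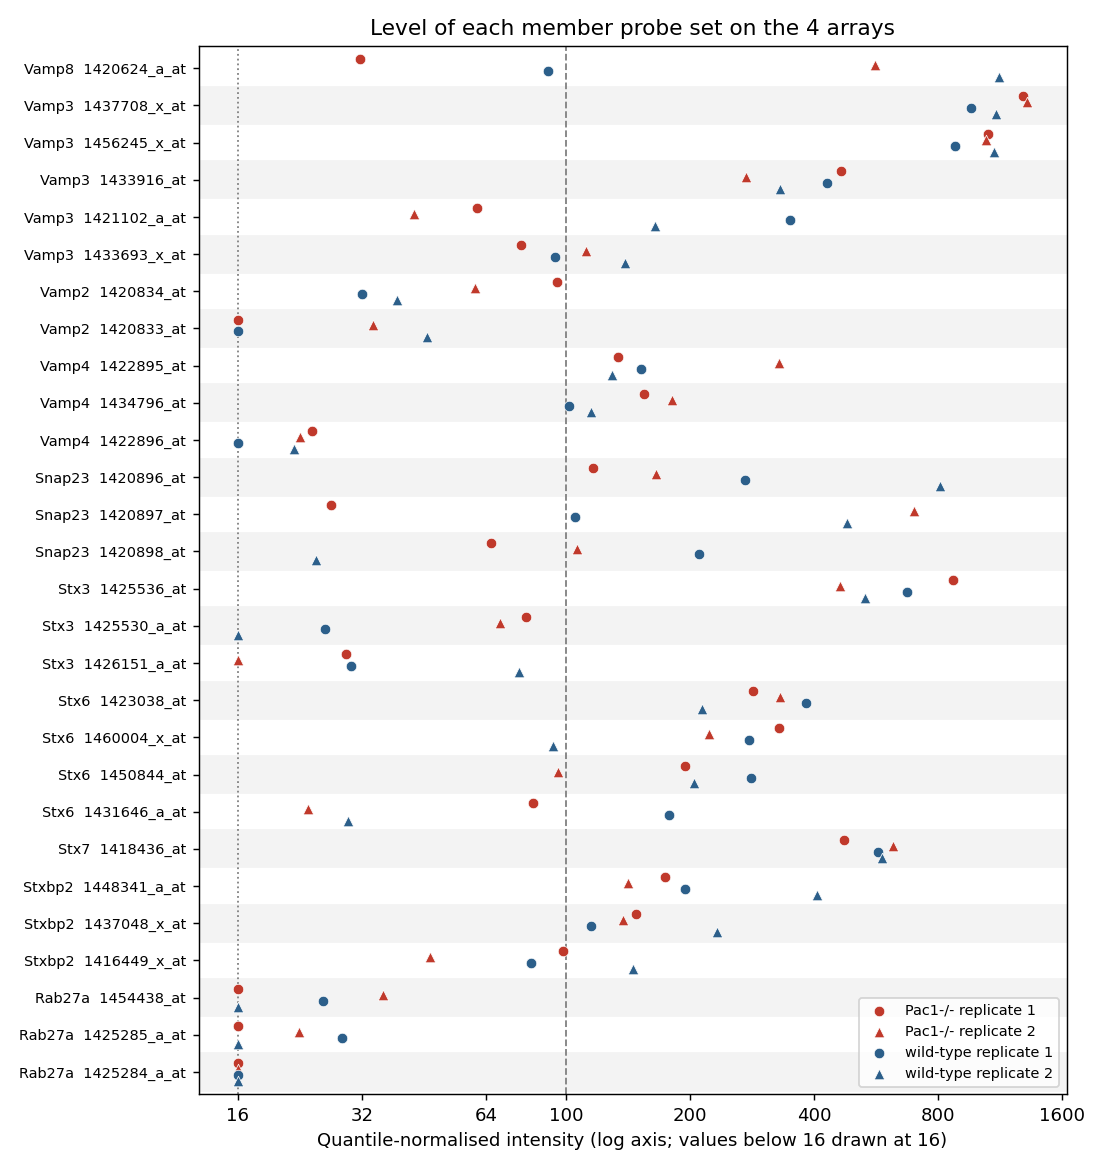
Quantile-normalised intensity (log axis) of the 28 probe sets on the 4 arrays, with Pac1-/- in red, wild-type in blue, circles for replicate 1 and triangles for replicate 2. The dashed line is the test minimum of 100 and the dotted line the floor of 16. Vamp8 splits by replicate number, the 2 brightest Vamp3 probe sets stay between 876 and 1314, and all Rab27a values lie at or below 36.

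Across the tested SNARE and Munc18-2 probe sets no genotype difference passed the test, and no Rab27a probe set was bright enough to be tested. Vamp3 on 1 of its 5 probe sets, Snap23 on 1 of 3, Stxbp2 on 1 of 2 and Stx6 on 1 of 3 were lower on both Pac1-/- arrays than on both wild-type arrays. One probe set each of Vamp3 and Vamp4 was higher on both. The other 12 tested probe sets overlapped between the genotypes, those of Vamp8, Stx3 and Stx7 among them.

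With limma and Benjamini-Hochberg adjustment over all probe sets tested, 0 of the 18 had an adjusted p under 0.05, against 0 of 7770 overall (0%), and their adjusted p lay between 0.866 and 0.992. At an unadjusted p under 0.05 there was 1 of 18, the Vamp3 probe set 1421102_a_at, against 263, or 3.38%, of all tested probe sets (1.13% lower in Pac1-/- cells). That probe set reached the minimum only through the wild-type arrays, where it is high. The genotypes did not overlap in 6 of 18 (33.3%), against 37.7% of all tested. Of these, 2 were higher (11.1%, against 24.3%) and 4 lower (22.2%, against 13.4%). There were 8 positive differences (52.9% of all tested were positive) and 10 negative ones (47.1% of all tested), with a median of -0.09, and the median over all tested probe sets was 0.06. The median absolute difference was 0.46 for these genes and 0.50 for all tested, near the median SE of 0.52 and 0.50. Centring each array on its median in place of quantiles put the median over all tested at 0.69 and that of these genes at 0.54, and it turned the sign of Stx7 (0.64), Stxbp2 1437048_x_at (0.27), Vamp3 1433693_x_at (0.062) and Vamp3 1433916_at (0.54). The counts taken over both directions are thus near those of the array as a whole. Their split by direction differed from it, on 18 probe sets, and that split was not tested. The intervals are wide enough that a p above the threshold does not show the genotypes to be alike.

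**Figure D2:**
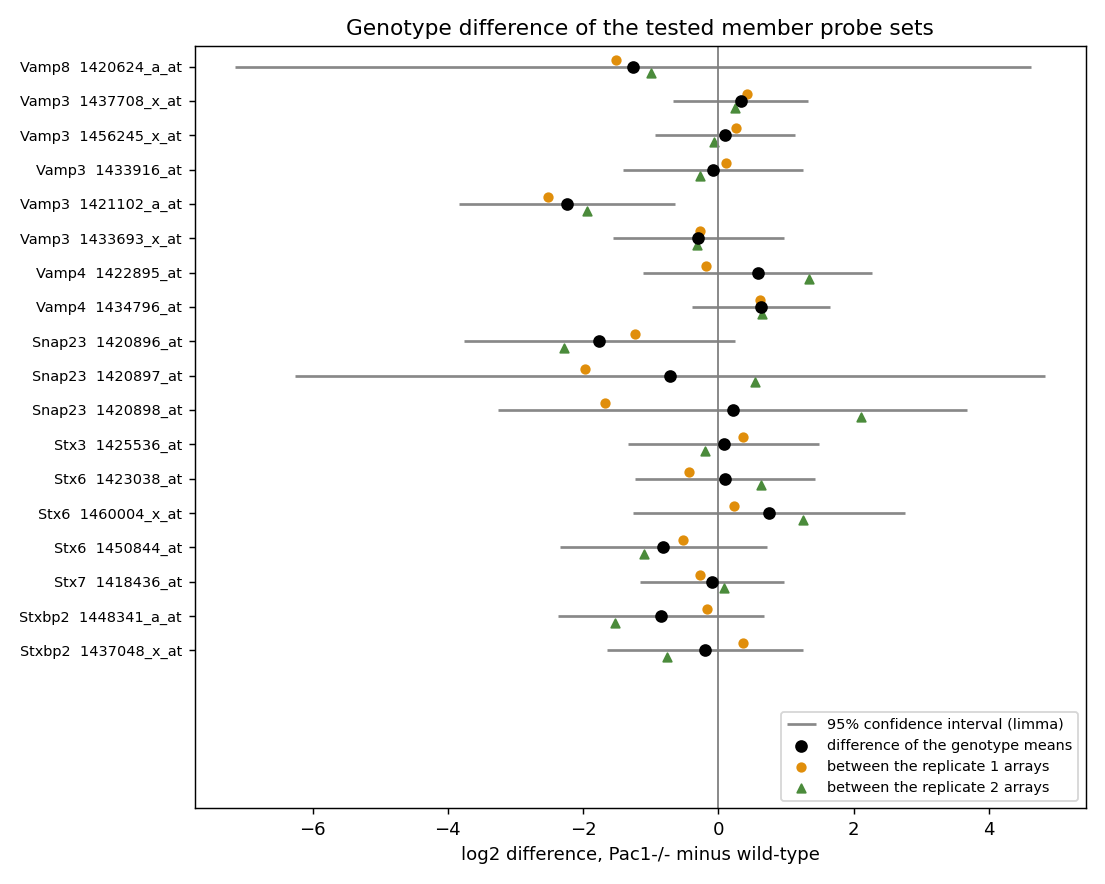
Log2 difference, Pac1-/- minus wild-type, of the 18 tested probe sets (black) with limma's 95% confidence interval, and the same difference within replicate 1 (orange circles) and within replicate 2 (green triangles). Only the interval of Vamp3 1421102_a_at, -3.83 to -0.64, lies to 1 side of 0, before adjustment, and those of Vamp8 and Snap23 1420897_at are the widest.

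Vamp8 encodes the vesicle SNARE that mast cell granules use in regulated release. Its single probe set, 1420624_a_at, read 31.6 and 562 in Pac1-/- replicates 1 and 2, against 90.5 and 1120.3 in wild-type replicates 1 and 2. Both replicate 2 arrays were far above both replicate 1 arrays, so the genotypes overlapped. Within each replicate number the Pac1-/- array was the lower, by a log2 difference of -1.52 for replicate 1 and -0.996 for replicate 2. The difference of the means was -1.26 ± 2.05 (SE, n = 2 per genotype; 95% interval -7.14 to 4.63; limma adjusted p = 0.927). Leaving out Pac1-/- replicate 1 put it at 0.83, leaving out wild-type replicate 2 at 0.56, and leaving out Pac1-/- replicate 2 at -3.17, since such a fit also holds part of the gap between the replicate numbers. That gap, replicate 2 minus replicate 1, was 4.15 in Pac1-/- and 3.63 in wild-type cells. It made up 90.2% of the sum of squares of Vamp8 over the arrays, against 9.41% between the genotypes.

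Vamp3, or cellubrevin, is a vesicle SNARE of recycling endosomes. Its probe sets did not read alike. The brightest, 1437708_x_at, had 1282 and 1314 in Pac1-/- cells and 959.6 and 1106 in wild-type cells. Both Pac1-/- arrays were above both wild-type arrays, by 0.33 ± 0.35 (SE; 95% interval -0.67 to 1.33; limma adjusted p = 0.878), a gap no larger than its error. The next, 1456245_x_at, read 1053 and 1044 in Pac1-/- cells and 876 and 1093 in wild-type cells, with overlapping genotypes and a log2 difference of 0.10 ± 0.36. Probe sets whose names end in x_at hold probes that may also bind other transcripts. The probe set 1433916_at, without that mark, read 466 and 273 in Pac1-/- cells and 431 and 330.3 in wild-type cells, where both replicate 1 arrays were the higher ones. Its difference was -0.08 ± 0.46.

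The Vamp3 probe set 1421102_a_at went another way. It read 60.9 and 42.7 in Pac1-/- cells, against 349 and 165 in wild-type cells. Both Pac1-/- arrays were below 100 and both wild-type arrays above it. The probe set thus reached the mean of 100 only through the wild-type arrays, and the minimum could admit it only as lower in Pac1-/- cells. The log2 difference was -2.23 ± 0.56 (SE, n = 2 per genotype; 95% interval -3.83 to -0.64), with -2.52 within replicate 1 and -1.95 within replicate 2. The unadjusted p of 0.0185 became a limma adjusted p of 0.866. Without Pac1-/- replicate 1 the difference was -2.47 (unadjusted p = 0.0597 from limma) and without Pac1-/- replicate 2 it was -1.85 (unadjusted p = 0.0908 from limma). The remaining probe set, 1433693_x_at, read 77.9 and 111.5 in Pac1-/- cells and 94.2 and 138.8 in wild-type cells, a difference of -0.29 ± 0.44 that overlapped. The 5 probe sets of Vamp3 thus ranged from -2.23 to 0.33, and the lowest stood apart from the other 4. The suffix a_at marks probes shared by alternative transcripts of 1 gene. Which transcripts each Vamp3 probe set reads was not analysed here.

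Vamp4 is a vesicle SNARE of the Golgi and of endosomes. Its probe set 1434796_at read 155 and 180.5 in Pac1-/- cells and 101.4 and 115 in wild-type cells. Both Pac1-/- arrays were higher, by 0.63 ± 0.36 (SE; 95% interval -0.39 to 1.65; limma adjusted p = 0.866), with 0.61 within replicate 1 and 0.65 within replicate 2. On 1422895_at Vamp4 read 134 and 328 in Pac1-/- cells and 152 and 129 in wild-type cells. Here the Pac1-/- replicate 2 array alone was high, and the difference of 0.58 ± 0.59 was 1.35 within replicate 2 and -0.18 within replicate 1. The third Vamp4 probe set, 1422896_at, stayed at or under 24.2 on every array. Vamp2, synaptobrevin, the vesicle SNARE of nerve terminals, was dim on both of its probe sets. On 1420834_at it read 95.3 and 60.0 in Pac1-/- cells and 32 and 38.8 in wild-type cells, and on 1420833_at no array read above 45.9.

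Snap23 encodes the partner of syntaxins at the mast cell membrane. On 1420896_at it read 116 and 166 in Pac1-/- cells, against 271 and 809 in wild-type cells. Both Pac1-/- arrays were lower, by -1.76 ± 0.70 (SE; 95% interval -3.75 to 0.24; limma adjusted p = 0.866), with -1.23 within replicate 1 and -2.29 within replicate 2. Without wild-type replicate 2 it was -0.999, and with median centring -1.17. The other 2 probe sets of Snap23 did not repeat this. On 1420897_at the values were 26.9 and 698 in Pac1-/- cells and 105 and 482 in wild-type cells, so that both replicate 2 arrays were high. The difference there was -0.71 ± 1.93, with -1.96 within replicate 1 and 0.54 within replicate 2. On 1420898_at Snap23 read 65.9 and 106.6 in Pac1-/- cells and 210.4 and 24.8 in wild-type cells, the wild-type arrays lying on either side of both Pac1-/- arrays. That difference was 0.21 ± 1.21, and with a floor of 64 in place of 16 it was -0.47.

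Stx3 encodes a membrane syntaxin that pairs with Munc18-2. Its bright probe set 1425536_at read 867 and 462 in Pac1-/- cells and 672 and 532 in wild-type cells. Both replicate 1 arrays were above both replicate 2 arrays, and the genotype difference was 0.08 ± 0.49 (SE; 95% interval -1.33 to 1.49). The other Stx3 probe sets were below 100 throughout. One of them, 1425530_a_at, read 79.8 and 69.2 in Pac1-/- cells and 26 and 9.0 in wild-type cells, and 1426151_a_at read 29.2 and 5.3 in Pac1-/- cells and 30.1 and 76.9 in wild-type cells. These dim readings lie on opposite sides, and neither reached the minimum for the main test. When limma was run with no minimum, 1425530_a_at was among the 3 of 28 member probe sets with an unadjusted p under 0.05. Over all probe sets 1762 of 22626 were below it in that run.

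Stx7 encodes a syntaxin of late endosomes. Its single probe set 1418436_at read 471 and 622 in Pac1-/- cells and 569.9 and 585 in wild-type cells. The wild-type values lay between the Pac1-/- values, with a difference of -0.09 ± 0.37 (SE; 95% interval -1.16 to 0.97), and the highest array was 1.32 times the lowest. Its sign turned on the values as deposited (0.016). Stx6 encodes a syntaxin of the trans-Golgi network and early endosomes. On 1423038_at it read 284 and 331 in Pac1-/- cells and 381 and 214 in wild-type cells, a difference of 0.10 ± 0.47. On 1460004_x_at it read 328 and 222 in Pac1-/- cells and 277.5 and 93.0 in wild-type cells, a difference of 0.75 ± 0.70. Both of these overlapped between the genotypes. On 1450844_at Stx6 read 195 and 95.8 in Pac1-/- cells, against 281 and 205 in wild-type cells. Both Pac1-/- arrays were lower there, by -0.81 ± 0.53 (SE; 95% interval -2.34 to 0.72; limma adjusted p = 0.866), and this was -0.28 without Pac1-/- replicate 2 and -0.38 with median centring. The last, 1431646_a_at, was too dim to be tested, at 83.1 and 23.6 in Pac1-/- cells and 178 and 29.6 in wild-type cells.

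Stxbp2 encodes Munc18-2, whose loss in humans causes familial haemophagocytic lymphohistiocytosis. On 1448341_a_at it read 173 and 141 in Pac1-/- cells, against 194 and 407 in wild-type cells. Both Pac1-/- arrays were lower, by -0.84 ± 0.53 (SE; 95% interval -2.36 to 0.68; limma adjusted p = 0.866). The gap was -0.16 within replicate 1 and -1.53 within replicate 2, and the difference was -0.32 without the wild-type replicate 2 array and -0.33 with median centring. On 1437048_x_at Stxbp2 read 148 and 138 in Pac1-/- cells and 115 and 232 in wild-type cells, a difference of -0.19 ± 0.51 that overlapped. The third, 1416449_x_at, read 98.5 and 46.8 in Pac1-/- cells and 82.4 and 145 in wild-type cells, just under the minimum with a mean of 93.2, while the dimmest tested probe set, Snap23 1420898_at, had a mean of 101.9. All 3 Stxbp2 probe sets were highest on wild-type replicate 2.

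Rab27a, the GTPase mutated in ashen mice and in human Griscelli syndrome, was dim on all 3 of its probe sets. On 1454438_at it read 3.5 and 36 in Pac1-/- cells and 25.7 and 8.0 in wild-type cells. On 1425285_a_at it read 2.3 and 22.5 in Pac1-/- cells and 28.6 and 11.8 in wild-type cells, and on 1425284_a_at no array was above 12.6. None reached the minimum for the main test, and a dim probe set shows only that its probes gave little signal, not that the gene is silent. Its close relative Rab27b, singled out after its values were seen, read 1332 and 2580.3 in Pac1-/- cells and 1708 and 1799.6 in wild-type cells, with a difference of 0.08 ± 0.49.

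Summed over the tested probe sets, the replicate number held more of the sum of squares than the genotype. The replicate number accounted for 61.8% of their sum of squares and the genotype for 24.1%, against 71.9% and 17.9% over all tested probe sets. Without Vamp8 these shares were 49.1% and 30.6%. The replicate numbers did not overlap in 7 of the 18 (38.9%), against 41.4% of all tested probe sets. Replicate 2 was the higher in 4 of them, 1 probe set each of Vamp8, Vamp3, Snap23 and Stx7, against 22.9% of all tested. Replicate 1 was the higher in 3, 1 each of Vamp3, Stx3 and Stx6, against 18.5%. The split is thus a feature of these arrays as a whole, of which Vamp8, with 35.5 times more signal on its highest than on its lowest array, is a strong case. The labels do not say whether a number marks a shared preparation. Of the mast cell markers, Ms4a2 and Gata2 lay the same way round as Vamp8, with both replicate 2 arrays above both replicate 1 arrays. Cpa3, Hdc, Srgn and Tpsab1 lay the other way, with both replicate 1 arrays the higher. Hdc, for example, was at 2276 and 1328 in Pac1-/- and 2199.5 and 1303 in wild-type replicates 1 and 2. The rest of that list did not separate by replicate number. In 3 of the 9 neutrophil markers read, both replicate 2 arrays were the higher. S100a8 was at 6.1 and 80.8 in Pac1-/- and 2.2 and 42.9 in wild-type replicates 1 and 2. S100a9 was at 10.2 and 107 in Pac1-/- and 7.8 and 57.7 in wild-type cells, and Ngp at 30.8 and 97.6 in Pac1-/- and 53.8 and 124.1 in wild-type cells. Cxcr2 and Camp of the same list lay the other way, with both replicate 1 arrays the higher. Cxcr2 was at 28.1 and 10.9 in Pac1-/- and 22.8 and 4.9 in wild-type cells. Camp was at 11.2 and 3.8 in Pac1-/- and 4.2 and 2.2 in wild-type cells. The remaining neutrophil markers overlapped between the replicate numbers. The neutrophil list summed to 233 and 486 in Pac1-/- and 295 and 309.9 in wild-type cells, and its part in the split was not tested.

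**Figure D3:**
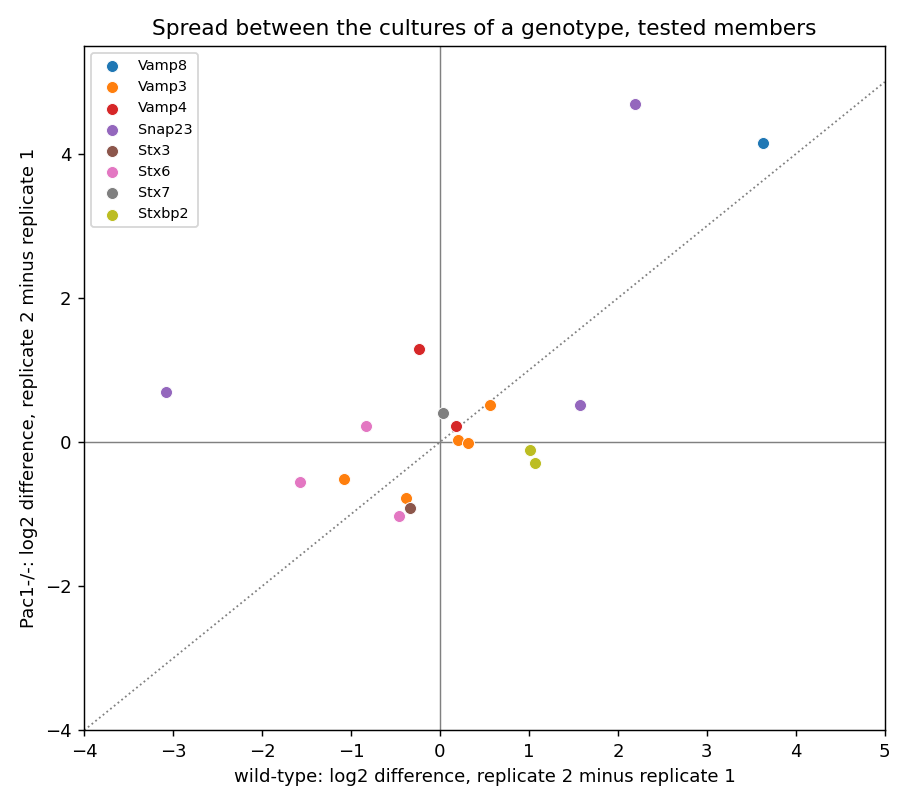
Log2 difference between the 2 cultures, replicate 2 minus replicate 1, in Pac1-/- cells (vertical axis) and wild-type cells (horizontal axis), 1 point per tested probe set, coloured by gene; the dotted line marks equal values. Vamp8, at 4.15 and 3.63, and Snap23 1420897_at, at 4.70 and 2.20, lie far up both axes, and Snap23 1420898_at, at 0.69 and -3.08, goes opposite ways.

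Probe sets of 1 gene often disagreed. Of the 5 genes with at least 2 tested probe sets, Vamp3, Snap23 and Stx6 had differences of both signs. Vamp4, with differences of 0.58 and 0.63, and Stxbp2, with -0.84 and -0.19, had 1 sign each. The 6 probe sets with non-overlapping genotypes belonged to 5 genes. For 3 of these genes, Vamp3, Snap23 and Stx6, another probe set had the opposite sign.

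The other genes of granule exocytosis were read on their brightest probe set, 115 genes in 9 lists, of which 64 were tested. None passed limma's adjusted test. At the unadjusted level 2 of 64 did, both higher, against 3.38% of all tested probe sets (2.25% higher). Of the 64, 39 were higher and 25 lower, with a median of 0.15. Over all tested probe sets 52.9% were positive and 47.1% negative, with a median of 0.06, and the counts by list below stand beside the same shares. The lists take 1 probe set per gene, the brightest, and the shares take every tested probe set. These splits by direction were not tested. Stx17, an autophagosome syntaxin, read 141 and 135 in Pac1-/- cells and 59.6 and 71.5 in wild-type cells, a difference of 1.08 ± 0.35 (SE; unadjusted p = 0.0418, limma adjusted p = 0.866). Sytl2, a Rab27 effector, read 474 and 306 in Pac1-/- cells and 173 and 149.8 in wild-type cells, a difference of 1.24 ± 0.42 (unadjusted p = 0.0456, limma adjusted p = 0.866). In both genes the Pac1-/- arrays lay above the wild-type arrays. Stx17 reached the minimum only through the Pac1-/- arrays, so it could be admitted only as higher.

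By role, the remaining SNAREs were split. Of 3 tested R-SNAREs 2 were higher, among them the endosomal Vamp7 (0.37 ± 0.39, SE), while the Golgi SNARE Ykt6 was at -1.09 ± 0.50. Of 6 syntaxins 4 were higher, with the Golgi syntaxin Stx5a at 0.69 ± 0.39. Of 7 other SNAREs 5 were higher, with Gosr1 at 0.52 ± 0.44 and Bet1l, both SNAREs of the Golgi, at -1.11 ± 0.88. Bet1l read 214 and 49.2 in Pac1-/- cells and 179.8 and 272 in wild-type cells, so Pac1-/- replicate 2 alone was low, and without that array its difference was -0.049. Of 7 SNARE regulators 4 were lower with a median of -0.51, and the genotypes did not overlap in 6 of the 7, against 33 of 64 over the lists and 37.7% of all tested. In 4 of the 6 the Pac1-/- arrays were lower and in 2, Snapin (0.41) and Napg (0.50), a SNARE-binding protein and a SNAP of SNARE recycling, they were higher. Among the lower ones was complexin Cplx1, which clamps SNARE bundles, at -1.71 ± 0.68. It read 43.2 and 70.7 in Pac1-/- cells and 296.5 and 110.2 in wild-type cells. Vapb, an anchor of the endoplasmic reticulum that binds VAMPs, was at -0.83 ± 0.35. It read 76.2 and 89.9 in Pac1-/- cells and 147.7 and 146.5 in wild-type cells. Cplx1 and Vapb reached the minimum only through the wild-type arrays, so it could admit them only as lower. Stxbp3, of the same list, lay the other way, at 94 and 139 in Pac1-/- cells and 47.4 and 49.3 in wild-type cells. It was too dim to be tested, so the counts of direction leave it out.

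The tethering and granule-building genes were split as well. Of 14 Rab GTPases 9 were higher, with the endosomal Rab14 at 0.61 ± 0.38 and Rab8a, which acts in transport to the cell membrane, at -1.56 ± 0.67. Of 9 genes listed as Rab27 and Rab3 effectors and motors 5 were higher. That list also holds regulators of Rab GTPases and the membrane proteins Scamp1, Scamp2 and Scamp3. Among the regulators was Rab3gap2, a subunit of the Rab3 GTPase-activating protein, at 1.10 ± 0.47. Exocyst subunits, which tether vesicles at the membrane, had 2 of 4 higher, with Exoc1 at 0.59 ± 0.36 and Exoc4 at -1.81 ± 1.34. Exoc4 read 345 and 29.8 in Pac1-/- cells and 370 and 339 in wild-type cells, so Pac1-/- replicate 2 alone was low, and without that array its difference was -0.033. Of 14 granule biogenesis genes 9 were higher, with Lyst, the gene of beige mice with giant granules, at 1.10 ± 0.42 and the BLOC-1 subunit Dtnbp1 at -0.96 ± 0.54. Each tested gene named by role here had a limma adjusted p of at least 0.866. Of these, Gosr1, Lyst and Rab3gap2 reached the minimum only through Pac1-/- arrays and could be admitted only as higher. Rab8a reached it only through the wild-type arrays and could be admitted only as lower. None of the 17 priming factors and calcium sensors, synaptotagmins and Munc13 proteins among them, reached the minimum.

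**Figure D4:**
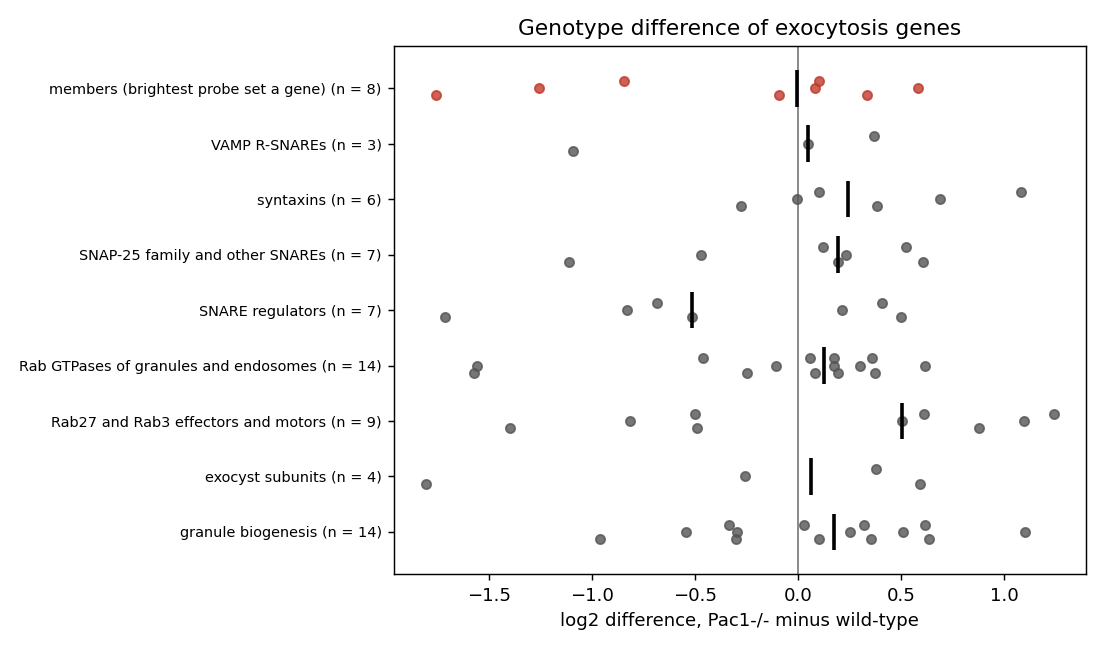
Log2 difference, Pac1-/- minus wild-type, of tested exocytosis genes, 1 point per gene on its brightest probe set, with the 8 genes described above in red and the 8 other lists with tested genes in grey; black bars are medians. The SNARE regulators have a median of -0.51. The list named Rab27 and Rab3 effectors and motors, which also holds Rab regulators and Scamp proteins, has one of 0.50.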

How the data were processed

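Total RNA, 500 to 1000 ng, went through a small-sample amplification and was hybridised to Affymetrix mouse 430A arrays, 1 per culture, per the labels' protocols. The authors' deposited table holds linear intensity values, and the submitters' processing notes name MAS5 as their source. The series' design text describes RMA, which was not used here. Detection calls were not used here.

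The 64 control probe sets were left out, the arrays quantile normalised, values below 16 set to 16 and log2 taken. Probe sets with a mean of at least 100 (7770 of 22626) were tested with limma 3.58.1 in R 4.3.3 (lmFit and eBayes with a genotype term alone; two-sided; threshold 0.05 after Benjamini-Hochberg adjustment; 2 residual and 1.71 prior degrees of freedom), and the steps were tested on simulated data. With 2 arrays per genotype the smallest exact permutation p is 0.3333, and no such test was run. The number of arrays limits the precision.

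The members and lists were chosen with earlier results of these data known. All member probe sets are named, and of each other list the 2 tested genes with the lowest p. Rab27b, Snapin, Napg, Stxbp3, Ms4a2, Tpsb2, S100a8, S100a9, Ngp, Cxcr2 and Camp were singled out after their values were seen. The same holds for Gata2, Cpa3, Hdc, Srgn and Tpsab1. Exoc4, Bet1l, Cplx1 and Vapb were likewise given per array after their values were seen. Alternatives were the values as deposited, median centring, no minimum, a minimum of 200, a floor of 64, an intensity trend, the replicate number as a block and leaving out each array. Promoter windows came from RefSeq tables of build GRCm38.p6.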

Additional observations from a re-analysis of the deposited data

How the results depend on the processing

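Under every alternative run, 0 members and 0 of all tested probe sets passed the adjusted test, and the lowest adjusted p of any probe set named was 0.377, with the replicate block. Settings other than leaving out an array kept the sign of single probe sets in 226 of 232 values. The intensity trend, the replicate block and both changes of the minimum leave the estimate as it is, so their values could not turn. Of the settings that could turn a sign, median centring turned 4 and kept 31. The values as deposited turned 1 and kept 34, and the floor of 64 turned 1 and kept 35. With median centring, which puts the median over all tested at 0.69, the sign turned for Stx7 (0.64), Stxbp2 1437048_x_at (0.27), Vamp3 1433693_x_at (0.062) and Vamp3 1433916_at (0.54), and the members' median was 0.54, still below that of all tested. Stx7 turned on the values as deposited (0.016) and Snap23 1420898_at with a floor of 64 (-0.47). The unadjusted count was 1 of 18 members (Vamp3 1421102_a_at), against 263 of 7770 over all tested. With no minimum it was 3 of 28, against 1762 of 22626. The 3 were Vamp3 1421102_a_at, Vamp4 1434796_at and the dim Stx3 1425530_a_at. With a minimum of 200 the count was 0 of 11, against 110 of 4969, and with the replicate block 3 of 18, against 899 of 7770. It was 0 without either Pac1-/- array, Vamp3 1421102_a_at without wild-type replicate 2, and Snap23 1420896_at without wild-type replicate 1, where that Vamp3 probe set was below the minimum. Over all tested probe sets the count of 263 was 110 with a minimum of 200, where fewer were tested, 1762 with no minimum, where more were, and 87 to 380 with an array left out. The share of higher calls among these was 66.5%, against 54.2% as deposited, 92.7% with median centring and 36.5% with the replicate block. With an array left out it lay between 10.5% (without Pac1-/- replicate 1) and 53.1% (without wild-type replicate 1).

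The labels do not pair the cultures. Deviations from the genotype means correlated at 0.751 between arrays of the same number, over probe sets, which are not independent replicates. With the replicate block the unadjusted count was 899 over all tested, and the 3 members were Vamp8, Vamp3 1421102_a_at and Snap23 1420896_at.

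A fit on 3 arrays takes the spread of the genotype left with 1 array from the other genotype, and part of the gap between the replicate numbers enters it. The members' median then lay between -0.11 and 0.10. The sign turned in 18 of 135 such values, and these ranges include 0: Rab27b -0.40 to 0.56, Snap23 1420897_at -2.91 to 1.66, Snap23 1420898_at -1.37 to 0.53, Stx3 1425536_at -0.38 to 0.52, Stx6 1423038_at -0.32 to 0.53, Stx6 1460004_x_at -0.043 to 1.59, Stx7 -0.28 to 0.11, Stxbp2 1437048_x_at -0.72 to 0.33, Vamp3 1433916_at -0.48 to 0.28, Vamp3 1456245_x_at -0.062 to 0.27, Vamp4 1422895_at -0.061 to 1.25 and Vamp8 -3.17 to 0.83. Others moved by over 1.5 times without a change of sign, among them Stx6 1450844_at (-1.33 to -0.28), Stxbp2 1448341_a_at (-1.41 to -0.32), Snap23 1420896_at (-2.60 to -0.999), Bet1l (-2.16 to -0.049), Exoc4 (-3.55 to -0.033), Ykt6 (-1.62 to -0.56), Dtnbp1 (-1.49 to -0.45) and Rab8a (-2.42 to -0.79). The cause was not tested.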
